A study of Mus musculus with 4 samples.

Results

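The transcripts of 10 immediate early genes, Fos, Fosb, Jun, Junb, Jund, Egr1, Egr2, Atf3, Ier2 and Dusp1, were followed across sorted cells of the embryonic mouse retina. They were taken as a list of names, which was proposed with earlier results of these data known. Each had 1 feature (probe set) with a single gene symbol in the platform annotation, so these are 10 of the 18920 genes measured and 10 of 22431 features. The samples were retinal cells of BAC-Crx-EGFP mice on a 129Sv/Ev background at day E17.5 of embryonic development, sorted by EGFP into positive and negative fractions, with 2 samples of each, and each sample was run on 1 array. All 4 samples carried the same transgene, in which regulatory DNA of the photoreceptor gene Crx on a bacterial artificial chromosome drives the enhanced green fluorescent protein. The study asked which genes set the EGFP-positive cells apart from the negative ones. The labels call the samples of each fraction rep1 and rep2. They do not say whether the numbers stand for separate animals, litters or sorts, whether retinas were pooled, or how long dissection and sorting took. No unsorted retina was analysed here.

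Immediate early genes are transcribed within minutes of a stimulus without new protein synthesis, and their transcripts are short-lived. Growth factors, depolarisation, light, stress and the handling of tissue are known inducers, acting through MAP kinases on the serum response factor SRF with its ternary complex partners, and on CREB. FOS and JUN proteins form the AP-1 transcription factor by dimerising through leucine zippers, EGR proteins are zinc finger factors, and DUSP1 is a phosphatase that switches MAP kinases off.

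Promoter sequences are shown because the members share inputs from CREB and SRF. RefSeq promoter windows (GRCm38.p6) were given here for 8 of the 10 members, all except Egr1 and Ier2. The 250 bases before the listed start were searched on both strands. A member was counted if any of its windows matched (12 windows for the 8 genes). The shares of all windows count each window singly, so the 2 are not like for like. The core TGACG of the cAMP response element (CRE) was found in 6 of these 8 genes, Fos, Fosb, Junb, Egr2, Atf3 and Dusp1, and in 17.8% of all 32851 windows. The full palindrome TGACGTCA, which contains that core, was found in Dusp1 and in 1.55% of all windows. A CArG box, the SRF motif, was found in Egr2 and in 1.47% of all windows. The AP-1 motif TGANTCA was found in none of the 8 and in 6.75% of all windows. These are matches of letters, not measured binding. Sites farther than 250 bases before the start were not searched, so a missing match does not mean that a gene lacks the site. The longer windows are those of Fos, which differed between the arrays, and of Dusp1, which hardly differed. For the others 30 bases are given. Capitals mark the CRE core or palindrome and, in Egr2, also the CArG box at the 5′ end.
Fos, chr12:85473640-85473889, plus strand: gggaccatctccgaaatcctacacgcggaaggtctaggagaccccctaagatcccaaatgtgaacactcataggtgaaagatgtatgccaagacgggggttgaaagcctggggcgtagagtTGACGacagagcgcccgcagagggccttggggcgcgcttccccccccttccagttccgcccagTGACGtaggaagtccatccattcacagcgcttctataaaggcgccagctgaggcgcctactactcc
Dusp1, chr17:26508473-26508722, minus strand: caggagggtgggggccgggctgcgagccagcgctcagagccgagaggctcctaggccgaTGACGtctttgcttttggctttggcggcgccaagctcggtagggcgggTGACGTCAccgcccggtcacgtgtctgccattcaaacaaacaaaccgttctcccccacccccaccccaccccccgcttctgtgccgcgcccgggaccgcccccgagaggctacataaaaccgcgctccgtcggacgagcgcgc
Fosb, chr7:19310088-19310117, minus strand: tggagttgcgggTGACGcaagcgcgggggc
Junb, chr8:84978837-84978866, minus strand: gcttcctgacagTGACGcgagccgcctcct
Atf3, chr1:191183334-191183363, minus strand: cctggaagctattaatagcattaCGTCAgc
Egr2, chr10:67537797-67537826, plus strand: CCATATATGGgcagcgaCGTCAcgggtatt

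Markers of photoreceptor precursors and of progenitors differed between the fractions as sorted. All 8 photoreceptor precursor markers, Crx among them, were higher in the positive fraction by limma. Of 8 progenitor markers all had a lower mean than in the negative cells, and Sox2 was called. All 8 amacrine and horizontal cell markers had a higher mean in positive cells, with sums of 4932.6 and 6030.4 for positive and 3462.0 and 3327.5 for negative samples, and Tfap2a and Tfap2b were called. The part of these cell types in the members' differences was not tested. Over all features 216 of 22431 (0.963%) differed between the fractions at an adjusted p under 0.05, 184 (0.82%) higher and 32 (0.143%) lower in the positive fraction. The count was 0 without negative replicate 1 or negative replicate 2 and 1429 without positive replicate 1. Values are normalised intensities on a linear scale in arbitrary units, the array medians were 218.4 to 222.9, and differences are log2 EGFP-positive minus EGFP-negative unless said otherwise. Because each sample is a mixture of cells, fewer cells of a type and less RNA per cell cannot be told apart.

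In the limma fit without the replicate number, none of the 10 members passed the adjusted threshold between the fractions (0.963% of all features did). There 1, Jund, had an unadjusted p under 0.05, as 19.2% of all features did. With the replicate number as a block 5 members were called, beside 12.8% of all features. Fos, Fosb, Egr2 and Ier2 were lower and Jund higher in positive cells. The labels do not say that the numbers pair the samples. Egr1, Egr2, Fos, Fosb and Ier2 were about 1.95-fold to 3.81-fold more intense on the replicate 1 array than on the replicate 2 array of the same fraction. Within each replicate number these 5 genes read higher in the EGFP-negative cells, for Egr1 by only 1.02-fold in replicate 2. The order from negative replicate 1 through positive replicate 1 and negative replicate 2 down to positive replicate 2 held for 7 of the 10 genes and for 6.81% of all features. This order was picked after the values were seen.

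**Figure D1:**
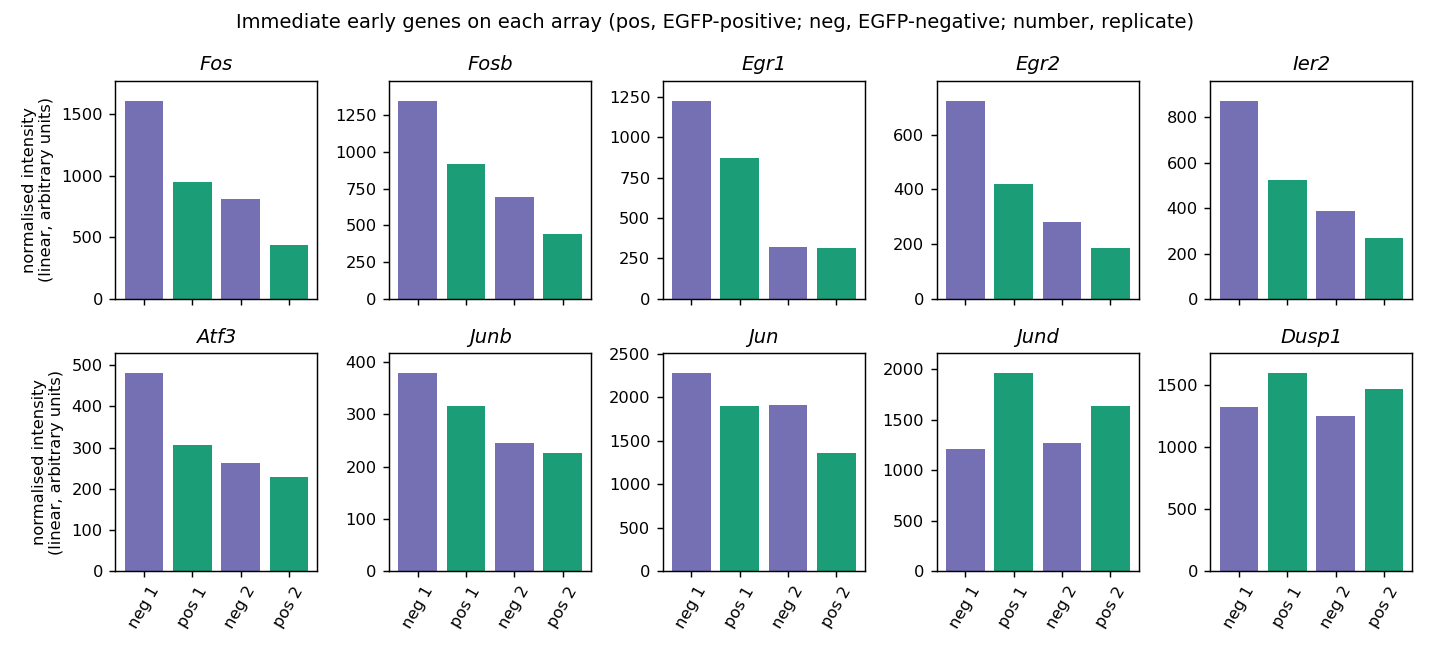
Normalised intensity (linear, arbitrary units) of each immediate early gene on the 4 arrays, 1 bar per array, with negative (neg) and positive (pos) samples of the same replicate number side by side. For Fos, Fosb, Egr1, Egr2, Ier2, Atf3 and Junb both replicate 1 bars stand above both replicate 2 bars. Jund and Dusp1 are higher in both positive samples.

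Fos encodes the founding AP-1 subunit that pairs with JUN proteins. It read 952.8 and 442.3 in positive replicates 1 and 2 and 1610.1 and 811.3 in the negative ones. The replicate 1 array was the higher in each fraction, and the fractions overlapped, since positive replicate 1 exceeded negative replicate 2. As log2 intensity the mean was 9.34 ± 0.78 for positive and 10.16 ± 0.70 for negative cells (SD, n = 2). The difference between the fractions was -0.82 ± 0.47 (SE), with a limma adjusted p of 0.441 and a 95% interval from -2.0 to 0.37. It moved with single arrays, from -1.37 without positive replicate 1 to -0.26 without positive replicate 2, and -0.32 without negative replicate 1. Within replicate 1 the negative sample was 1.69-fold higher and within replicate 2 it was 1.83-fold higher. Between replicate numbers Fos differed by 2.15-fold among positive and 1.98-fold among negative cells. With the replicate number as a block in the fit, the fractions differed by -0.82 ± 0.10 (SE, limma adjusted p = 0.0101).

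Fosb, a FOS paralogue that forms AP-1 with the same partners, followed Fos closely. Its intensities were 914.3 and 442.4 on the positive arrays (replicates 1 and 2) and 1346.3 and 691.7 on the negative arrays. Again both replicate 1 arrays lay above both replicate 2 arrays and the fractions overlapped. The fractions differed by -0.60 ± 0.45 (SE, limma adjusted p = 0.578), and by -1.12 without positive replicate 1, -0.08 without positive replicate 2 and -0.12 without negative replicate 1. The negative sample was the higher by 1.47-fold within replicate 1 and by 1.56-fold within replicate 2, against 2.07-fold (positive) and 1.95-fold (negative) between replicate numbers. Of the other members, Fosb was the nearest to Fos in profile, at a Euclidean distance of 0.22 between log2 values centred on each gene's mean over the 4 arrays.

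The 3 Jun genes, which encode the JUN partners in AP-1, did not share 1 pattern. Jun read 1893.2 and 1359.6 on the positive arrays and 2276.2 and 1910.8 on the negative arrays. Both negative values lay above both positive ones, as for 25.3% of all features, with a difference of -0.38 ± 0.19 (SE, limma adjusted p = 0.380), and from -0.62 without positive replicate 1 to -0.14 without positive replicate 2. Junb, whose protein is a weaker activator than JUN at many AP-1 sites, read 316.7 and 225.6 against 378.7 and 245.9. Here both replicate 1 arrays exceeded both replicate 2 arrays, by 1.40-fold among positive and 1.54-fold among negative cells. The Junb difference between the fractions was -0.19 ± 0.26 (limma adjusted p = 0.799). It turned to 0.05 without positive replicate 2 and to 0.12 without negative replicate 1, while within replicates 1 and 2 it was -0.26 and -0.12.

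Jund, the Jun gene known for steady expression in unstimulated cells, had the opposite direction to Jun and Junb. It read 1961.7 and 1638.2 on the positive arrays and 1213.5 and 1271.2 on the negative arrays, so the fractions did not overlap (22.3% of all features were higher in the positive fraction without overlap). Its mean log2 intensity was 10.81 ± 0.18 against 10.28 ± 0.05 (SD, n = 2). The positive fraction was 1.44-fold higher (0.53 ± 0.13, SE, 95% interval 0.21 to 0.85), with a limma adjusted p of 0.120 and an unadjusted p of 0.00781. Between replicate numbers Jund differed by -0.26 among positive and 0.07 among negative cells (log2, replicate 2 minus replicate 1), and it was the 1 member not lower in replicate 2 of both.

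Egr1, a zinc finger factor induced by neuronal activity and growth factors, differed more between replicate numbers than any other member. It read 870.4 and 315.7 on the positive arrays and 1224.1 and 321.0 on the negative arrays. The replicate 2 arrays of the fractions were nearly equal, and both replicate 1 arrays lay far above them, by 2.76-fold among positive and 3.81-fold among negative cells. Ordered by the mean log2 difference of replicate 2 minus replicate 1 over both fractions, Egr1 stood at place 3 from the lowest among 18920 genes. With log2 means of 9.03 ± 1.03 and 9.29 ± 1.37 (SD, n = 2), the fractions differed by -0.26 ± 0.75 (SE, limma adjusted p = 0.924, 95% interval -2.16 to 1.65). The direction turned to 0.47 without positive replicate 2 and to 0.71 without negative replicate 1. Within replicates 1 and 2 the Egr1 difference between the fractions was -0.49 and -0.02.

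Egr2, its paralogue known from hindbrain patterning and myelination, had the same order of arrays. It read 420.8 and 184.8 on the positive arrays and 723.3 and 280.5 on the negative arrays. The replicate 1 arrays were 2.28-fold and 2.58-fold above the replicate 2 arrays, and Egr2 stood at place 8 in the same ordering of 18920 genes. Within replicate 1 the negative sample was 1.72-fold higher and within replicate 2 it was 1.52-fold higher. The fit over all arrays gave -0.69 ± 0.57 (SE, limma adjusted p = 0.615). Leaving out 1 array moved this to between -1.37, without negative replicate 2, and -0.0085, without negative replicate 1.

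Ier2, a nuclear protein gene induced by serum, read 525.9 and 269.6 on the positive arrays and 872.3 and 386.2 on the negative arrays. It was 1.95-fold and 2.26-fold higher in replicate 1 than in replicate 2, and it differed by -0.62 ± 0.48 between the fractions (SE, limma adjusted p = 0.590). Leaving out 1 array moved that value to between -1.21, without negative replicate 2, and -0.04, without negative replicate 1. Atf3, a stress-induced factor of the ATF family that can pair with JUN, read 306.4 and 228.5 against 480.6 and 262.0. Its highest value was that of negative replicate 1, and the other 3 arrays lay within 228.5 to 306.4. Atf3 differed by -0.42 ± 0.31 between the fractions (SE, limma adjusted p = 0.576) and by 0.01 without negative replicate 1, which turned its sign. Within replicates 1 and 2 its difference between the fractions was -0.65 and -0.20.

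Dusp1, the MAP kinase phosphatase gene, differed little between replicate numbers. It read 1595.7 and 1467.8 on the positive arrays and 1325.9 and 1253.2 on the negative arrays, so all 4 values lay within a narrow range and the positive values lay above the negative ones. The replicate 1 arrays were 1.09-fold and 1.06-fold above the replicate 2 arrays. The positive fraction was 1.19-fold higher (0.25 ± 0.11, SE, limma adjusted p = 0.299, 95% interval -0.02 to 0.52). Its promoter window, printed above, holds the CRE palindrome and a further CRE core, as that of Fos holds 2 cores.

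**Figure D2:**
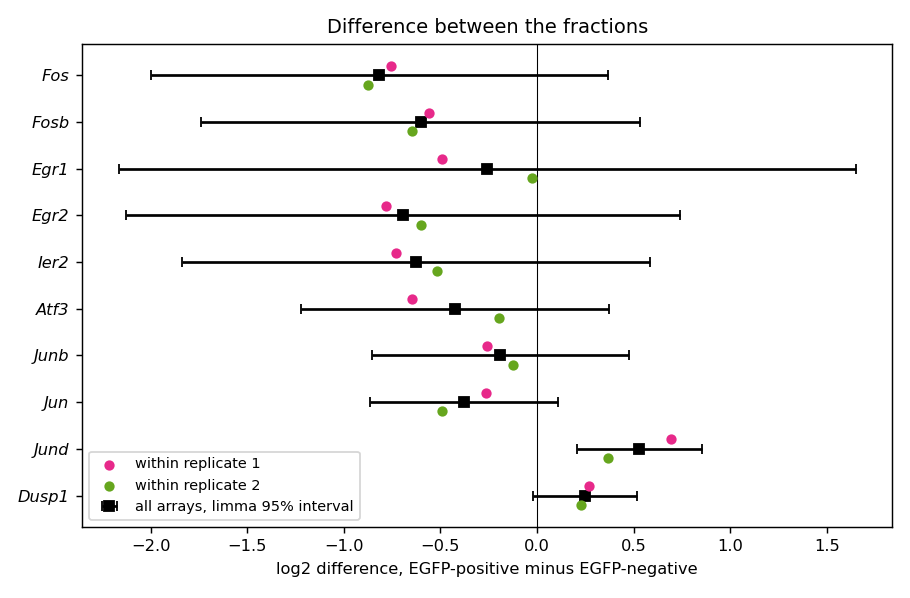
Log2 difference of EGFP-positive minus EGFP-negative intensity for each member. Squares give the limma estimate over all 4 arrays with its 95% interval (n = 2 per fraction), and circles the difference within each replicate number. The interval of Jund, from 0.21 to 0.85, is the 1 that leaves out 0, while the circles of 8 genes lie below 0 in both replicate numbers and those of Jund and Dusp1 above.

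Over the members, 8 had a lower mean in positive than in negative cells and 2 a higher one, where 52.2% of all features had a lower mean. The 8 were lower and the 2 higher within each replicate number too. The median log2 difference was -0.40, and -0.01 over all features. In the fit without the replicate number the median standard error of the 10 genes was 0.38, against 0.12 over all features. The spread between the samples of a fraction was thus wide for them. With the replicate number as a block the members' median standard error was 0.10. In the fit without the block, the smallest difference that passed the threshold among all features was 0.75 in size. Of the members only Fos, with 0.82, lay beyond it.

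Within a fraction each replicate number has 1 array, so the sizes between replicate numbers given here are a description. Egr1 and Egr2 were at least 2-fold lower on the replicate 2 array of each fraction, as were 14 of 22431 features (0.0624%). In the positive fraction alone 4 members passed 2-fold (Egr1, Egr2, Fos and Fosb, beside 0.669% of all features), and in the negative fraction 3 did (Egr1, Egr2 and Ier2, beside 0.138%). For 7 members both replicate 1 arrays exceeded both replicate 2 arrays (16.5% of all features), and 9 members were lower in replicate 2 of both fractions (32.4%). The median log2 change from the replicate 1 to the replicate 2 array was -0.73 for positive and -0.92 for negative cells, against 0.02 and -0.04 over all features. The size was larger in the negative fraction for 5 members and larger in the positive fraction for the other 5. For 7 members the mean difference between replicate numbers was larger in size than the difference between the fractions, the exceptions being Jun, Jund and Dusp1.

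**Figure D3:**
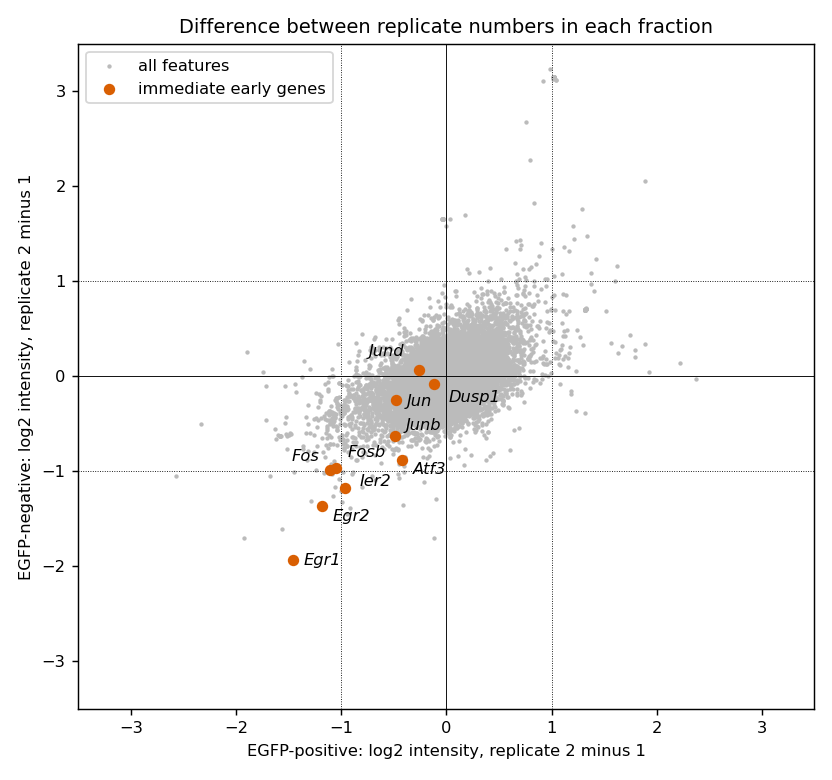
Log2 intensity of replicate 2 minus replicate 1 in the EGFP-positive fraction (horizontal) against the EGFP-negative fraction (vertical), with all 22431 features as grey points, members as orange points and dotted lines at 2-fold. Egr1 and Egr2 lie beyond both lower lines, Fos, Fosb and Ier2 lie next to their crossing, and Dusp1 and Jund lie near the centre of the grey points.

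The 14 features at least 2-fold lower in replicate 2 of both fractions named 12 genes, of which 10 were not members. Nr4a1, a nuclear receptor gene that is itself an immediate early gene, read 746.2 and 304.9 on the positive arrays and 813.2 and 327.6 on the negative arrays. Its replicate 1 arrays were high and its fractions nearly equal (-0.11 ± 0.58, SE, limma adjusted p = 0.963). Spry2, an inhibitor of receptor tyrosine kinase signalling, read 988.9 and 473.2 against 1655.5 and 737.2, with the same order of arrays as Fos. The other 8, all chosen after their values were seen, were Cxcr4, Nfix, Lhx9, Gli3, Mcam, Crym, Car2 and the cDNA-named 4922502B01Rik. Cxcr4, a chemokine receptor gene, had the largest difference of these 12 genes among positive cells, with a difference of -2.57 there and of -1.05 among negative cells.

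Profiles over 4 arrays nearest to Fos, by Euclidean distance between centred log2 values and with the members left out, were those of Sox8 (0.14), Scarb1 (0.15), Kif14 (0.15), Spry2 (0.18) and Car2 (0.19). Sox8 read 743.2 and 314.6 on the positive arrays and 1282.2 and 647.5 on the negative arrays. Nearest to Egr1 were 4922502B01Rik (0.42), Nr4a1 (0.48), Nfix (0.49), Prelp (0.51) and Irf1 (0.69). Among the members the distance to Fos was 0.22 for Fosb, 0.25 for Ier2 and 0.30 for Egr2, and 1.42 for Dusp1 and 1.65 for Jund. With 4 points per gene and 18920 genes compared, these distances only describe the arrays.

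Other genes of the same response were taken from lists. Of 17 other immediate early transcription factor genes none was called by limma between the fractions and 2 had an unadjusted p under 0.05. Their median difference was -0.14 between the fractions, and -0.32 (positive) and -0.10 (negative) between replicate numbers. In replicate 2 of both fractions 12 of 17 were lower (32.4% of all features), and 1, Nr4a1, by at least 2-fold (0.0624%). Egr3, the third EGR gene, read 427.0 and 316.2 on the positive arrays and 626.4 and 337.3 on the negative arrays. Klf6, a zinc finger factor, read 848.8 and 424.1 against 1228.4 and 927.4 (-0.83 ± 0.35, adjusted p = 0.285). Klf10 went the other way, with 352.9 and 464.5 against 254.4 and 317.8 (0.51 ± 0.18, adjusted p = 0.228), and Maff, a small MAF factor, differed by -0.58 ± 0.22 (adjusted p = 0.251).

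Of 29 effectors and feedback inhibitors none was called by limma, 10 had an unadjusted p under 0.05, and the median difference between the fractions was -0.09. Zfp36l1, which promotes decay of AU-rich messenger RNAs, read 1418.0 and 563.7 on the positive arrays and 2781.0 and 1836.5 on the negative arrays (-1.34 ± 0.46, SE, adjusted p = 0.212). Ccn1, a matricellular protein gene, read 2661.2 and 940.7 against 3738.4 and 2443.5 (-0.93 ± 0.51, adjusted p = 0.417). Dusp6, a phosphatase of ERK, differed by -0.88 ± 0.41 (limma adjusted p = 0.337) and so, unlike Dusp1, was lower on average in positive cells. Of the 29 genes 16 had a lower and 13 a higher mean in positive cells. The lowest adjusted p values of the list were those of genes higher in positive cells. These were Dusp5 (0.64 ± 0.10, limma adjusted p = 0.0686) and Plk2 (0.61 ± 0.10, limma adjusted p = 0.0715). Between replicate numbers the list's median was -0.10 for positive and -0.19 for negative cells. In replicate 2 of both fractions 16 of 29 were lower (32.4% of all features).

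The kinases and factors upstream differed less between replicate numbers. Of 24 measured none was called by limma between the fractions, 8 had an unadjusted p under 0.05, 15 had a higher mean in the positive fraction, and the median was 0.12. Elk1, an SRF partner, read 808.1 and 843.1 on the positive arrays and 527.9 and 576.4 on the negative arrays (0.58 ± 0.11, adjusted p = 0.0832), a difference without overlap of the fractions. Rps6ka5, a kinase that phosphorylates CREB and histone H3, differed by 0.46 ± 0.11 (adjusted p = 0.116), and Map2k1, a kinase of ERK, by -0.47 ± 0.18 (adjusted p = 0.237). Srf itself was higher in replicate 1, with 1801.1 and 1253.2 on the positive arrays and 1867.7 and 1238.8 on the negative arrays, and its fractions differed by -0.02 ± 0.26 (adjusted p = 0.987). The p38 gene Mapk11 and the JNK gene Mapk10 were higher in replicate 2 of both fractions, by 0.38 and 0.61 and by 0.29 and 0.33 (log2, positive and negative).

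Of 12 AP-1 relatives and dimer partners none was called by limma, and 2 had an unadjusted p under 0.05. Their median difference was -0.06 between the fractions, and -0.02 (positive) and -0.08 (negative) between replicate numbers, nearer to all features than the members were. Atf2, an ATF factor that pairs with JUN, read 1748.2 and 2369.0 on the positive arrays and 1482.0 and 1721.7 on the negative arrays (0.35 ± 0.18, adjusted p = 0.384), and Mafk differed by -0.50 ± 0.17 (adjusted p = 0.210). In a list of 6 genes drawn up as repressors and degraders of EGR and AP-1 proteins 1, Cited2, was called. Whether Cited2 acts on EGR or AP-1 proteins was not tested here. Cited2, which binds the coactivators CBP and p300, was higher in the positive fraction, with 2805.3 and 2882.4 against 1700.0 and 1692.2 (0.75 ± 0.10, limma adjusted p = 0.0495). It was the 1 called gene among these lists. Its value lay just inside the threshold: the adjusted p was 0.120 without positive replicate 2, 0.328 without negative replicate 1, 0.293 without negative replicate 2 and 0.0770 with a variance trend.

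Heat shock genes, which are also induced by stress, had medians near 0 between replicate numbers. The 14 measured had a median difference between replicate numbers of 0.05 for positive and -0.04 for negative cells. Hsph1, a chaperone with the largest mean difference among those of 1 sign in both fractions, read 1103.0 and 973.5 on the positive arrays and 1549.3 and 1206.7 on the negative arrays. Between the fractions none was called by limma and 2 had an unadjusted p under 0.05. The mitochondrial chaperonin gene Hspd1 read 1395.7 and 1354.6 on the positive arrays and 2203.1 and 2098.6 on the negative arrays (-0.65 ± 0.10, adjusted p = 0.0672), without overlap.

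**Figure D4:**
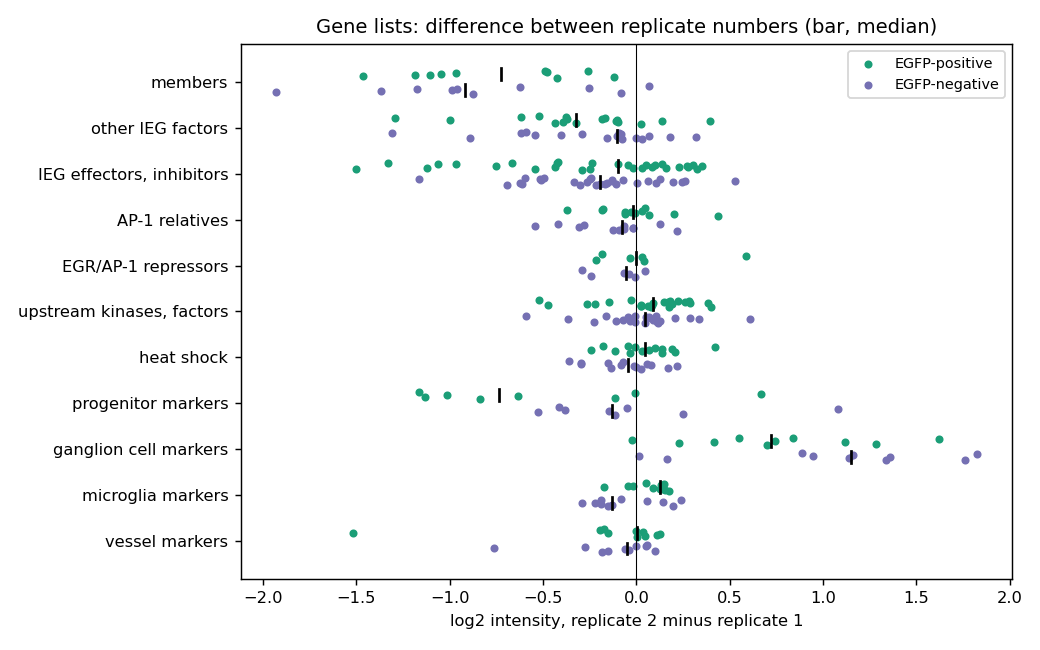
Log2 intensity of replicate 2 minus replicate 1 for each gene of the lists, with a point per gene and fraction and a black bar at each list's median (IEG, immediate early gene). The members' medians are -0.73 and -0.92, those of heat shock genes 0.05 and -0.04, and those of ganglion cell markers 0.72 and 1.15.

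Markers of some cell types also read apart between the replicate numbers. Over all features, 32.4% were lower in replicate 2 of both fractions. Of 10 retinal ganglion cell markers 9 were higher in replicate 2 of both fractions, 3 of them by at least 2-fold (0.138% of all features). The share of all features higher in replicate 2 of both fractions at any size was not counted. For 8 of the 10 both replicate 2 arrays exceeded both replicate 1 arrays, as for 15.7% of all features. The list's summed intensity was 5116.2 and 8689.0 in positive and 3756.7 and 8907.4 in negative replicates 1 and 2. Of 8 progenitor markers 6 were lower in replicate 2 of both, with sums of 20950.3 and 14943.2 for positive and 33154.2 and 33053.1 for negative samples. Of 11 microglia markers 1 was lower in replicate 2 of both fractions and the sums stayed within 1189.1 to 1267.7, with 5 of the 11 below the 25th percentile of intensity. Of 10 endothelial and pericyte markers 2 were lower in replicate 2 of both fractions. The sums of that list, 4630.8 and 2557.1 for positive and 6370.4 and 4254.6 for negative replicates 1 and 2, were mostly set by Kdr, which retinal progenitors also express, with 3171.2 and 1107.0 on the positive arrays and 4888.5 and 2883.9 on the negative arrays. The endothelial markers Pecam1 and Cdh5 read 110.4 to 110.5 and 118.9 to 135.1 on the 4 arrays. Of 6 astrocyte markers 5 were lower in replicate 2 of both fractions, with sums of 1388.6 and 975.7 for positive and 2106.6 and 1750.8 for negative samples. Slc1a3, which progenitors also express, was the highest of them on each array, with 781.9 and 384.0 for positive and 1473.6 and 1193.1 for negative samples. Gfap, Aqp4, S100b and Aldh1l1 were dim, at 80.1 to 137.2 over the 4 arrays. Pax2 differed between replicate numbers by only -0.02 among positive and -0.03 among negative cells. Of 8 amacrine and horizontal cell markers 4 were higher and 2 lower in replicate 2 of both fractions. Their median differences were 0.28 among positive and 0.01 among negative cells. The horizontal cell factor gene Onecut1 had the largest shared difference of them, 1.14 among positive and 0.66 among negative cells. Prox1 went the other way, with -0.01 and -0.48. The part of the ganglion cell, progenitor, vessel, astrocyte, amacrine and horizontal cell markers in the members' differences was not tested.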

How the data were processed

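The authors deposited 1 table of normalised intensity, with a column for each array. RMA and the genome build mm8 stand in the submitters' processing notes. Not given in the sources used here are the RMA version, the probe sets summarised and any filter. The linear scale was inferred from the range of 18.9 to 36625.2. RNA input was 100 ng per sample, per the labels' protocols. No column of values was left unused.

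Of 22431 features, 20176 had 1 gene symbol, 412 several and 1843 none. A gene took its feature with the highest mean. Log2 values without a pseudocount were fitted with lmFit and eBayes (no trend) of limma 3.58.1 under R 4.3.3, with two-sided p-values adjusted by Benjamini-Hochberg over all features at a threshold of 0.05. Total degrees of freedom were 5.27, of which 2 are residual. The number of arrays limits the precision. Separate animals are not stated, so the spread behind each p-value may be technical. The pipeline was tested on simulated data.

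The members, lists and naming rule were chosen with earlier results of these data known. The rule took all members, from each list the 3 genes with the largest difference between the fractions and the 3 with the largest shared difference between replicate numbers (the text names a selection of these), and the 5 profiles nearest to Fos and to Egr1. Alternatives covered centring, quantile normalisation, a variance trend, a filter below the 25th percentile, feature means, a pseudocount of 16, a replicate block and leaving out each array. Dusp5 and Plk2 stand outside the naming rule and were added after their values were seen. List genes for which no single-symbol feature was found are not analysed here. Maff, Srf, Jdp2 and Nab2 stand in more than 1 list. Promoter coordinates are RefSeq's on GRCm38.p6, not the array's build.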

Additional observations from a re-analysis of the deposited data

How the results depend on the processing

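None of the 10 members was called between the fractions under 11 of 12 alternatives, with 0 called in each leave-one-out fit. With the replicate block 5 members were called, Fos, Fosb, Egr2 and Ier2 lower and Jund higher in the positive fraction, among 2877 features called (12.8%), and Fos had an adjusted p of 0.0101. That fit called 32 features between replicate numbers (0.143%), 5 of them members (Egr1, Egr2, Fos, Fosb and Ier2, each with an adjusted p of 0.0492). The labels do not say that the numbers pair the samples. The differences between replicate numbers in the 2 fractions had a Pearson's r of 0.48 across features, which are not independent replicates. Features called ranged from 0 to 1429 over the leave-one-out fits. They were 0 without negative replicate 1 and without negative replicate 2, where 2346 and 3134 had an unadjusted p under 0.05, and 1429 without positive replicate 1. Over the leave-one-out fits the difference ranged from -0.50 to 0.12 for Junb, from -1.22 to 0.71 for Egr1 and from -0.86 to 0.014 for Atf3. It ranged from -1.37 to -0.26 for Fos, -1.12 to -0.08 for Fosb, -1.37 to -0.0085 for Egr2, -1.21 to -0.04 for Ier2 and -0.62 to -0.14 for Jun. Values above 0 were those without positive replicate 2 (Junb 0.05, Egr1 0.47) and without negative replicate 1 (all 3 genes). Leaving out 1 array leaves unequal replicate numbers in the fractions, so these values also hold part of the difference between replicate numbers. Within each replicate number all 3 genes read lower in positive cells. The log2 differences within replicates 1 and 2 were -0.26 and -0.12 for Junb, -0.49 and -0.02 for Egr1, and -0.65 and -0.20 for Atf3. The cause of the difference between replicate numbers was not tested. Of 120 member values under alternatives, 110 kept direction and side of the threshold, 5 turned and 5 became called. The lone sample left in a fraction was assumed to vary like the other fraction. Cited2, added after its values were seen, stayed higher in each fit, but its adjusted p passed the threshold in 5 of 12 alternatives, and ranged from 0.0112 with the replicate block to 0.328 without negative replicate 1.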
